A study of Mus musculus with 4 samples.

Results

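Platelets are cell fragments without a nucleus that circulate in the blood, plug damaged vessels and release stored proteins. They are shed by megakaryocytes, large polyploid cells of the bone marrow that also occur in the capillaries of the mouse lung. A platelet cannot make new messenger RNA and carries what its megakaryocyte packed into it, so its RNA is rich in the genes of granules, adhesion receptors and the cytoskeleton and poor in RNAs that stay in the nucleus.

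The barcodes described here were chosen from 10x single-cell counts of mouse lung by 6 platelet genes. A barcode was taken if it had at least 1 UMI (unique molecular identifier, 1 counted RNA molecule) in 3 or more of Pf4, Ppbp, Gp9, Itga2b, Clec1b and Treml1 and none of Cd3e (T cells), Cd79a (B cells) or Csf3r (neutrophils). Limits on a barcode were more than 200 but fewer than 5000 detected genes, no more than 25000 UMIs, and a mitochondrial share below 8%. Of 34037 deposited barcodes 28153 were within these limits (kept barcodes), and 101 of them carried the platelet markers. The 4 libraries were from lungs of wild type C57BL/6 mice labelled male, aged 10 days (NB), 2 months (2 M), 10 months (10 M) and 18 months (18 M), with 1 library per age and no treatment or transgene. Lungs had been digested with collagenase and DNase and passed through a kit that takes out dead cells, and no surface marker was sorted for. How many mice a library holds is not given in the sources used here. With 1 library per age no test between ages was possible, so every interval below is an exact 95% interval that covers counting error only.

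The library labelled 18 M went against its label. Xist, the RNA that coats the inactive X chromosome of female cells, had a UMI in 36.3% of its kept barcodes and in 0.0784% to 0.254% of those of the other libraries. Of the 20 platelet-marker barcodes of that library, 5 held Xist, 58 UMIs in all. These 5 lay among its 7 barcodes that also carried markers of another cell type, and none of its other 13 had a UMI, a count of 0 that allows a share of up to 23.1%. The pooled shares of platelet-marker barcodes, and of those with markers of another cell type, are given with and without 18 M. So are the part of the UMIs that the latter hold and the ratios of the named genes outside the platelet lists. Other pooled values include 18 M. Libraries shared 17 to 28 barcode sequences per pair, no platelet-marker barcode was one in a second library, and 2 recurred there as other barcodes. The 4 libraries held 33087004 to 64863474 UMIs, and the median kept barcode had 3998.5 to 4308.

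Pf4 (platelet factor 4) and Ppbp (pro-platelet basic protein) are chemokines stored in alpha granules, and their genes are neighbours on chromosome 5. In GENCODE vM21 (GRCm38) Ppbp (ENSMUSG00000029372) lies at chr5:90768518-90770063 and Pf4 (ENSMUSG00000029373) at chr5:90772435-90773383, both on the plus strand, with 2371 bases between them. Gp9 (ENSMUSG00000030054, chr6:87778072-87779768, plus strand) encodes a subunit of the receptor for von Willebrand factor. Itga2b (ENSMUSG00000034664, chr11:102453297-102470122, minus strand) is the integrin alpha chain of the fibrinogen receptor, Clec1b (ENSMUSG00000030159, chr6:129397297-129409335, plus strand) is CLEC-2, the receptor for podoplanin, and Treml1 (ENSMUSG00000023993, chr17:48359916-48367176, plus strand) is a receptor of alpha granule membranes. Promoters are shown for the 3 genes that name the lineage, since megakaryocyte promoters are known to be read by GATA and ETS factors. Each is the RefSeq window (GRCm38.p6) from 250 bases before to 50 bases after the start of the gene, and capitals mark GATAA and GGAAG on either strand, none of which overlap. The windows are chr5:90772185-90772484 for Pf4, chr5:90768268-90768567 for Ppbp and chr6:87777820-87778119 for Gp9, all on the plus strand.
Pf4: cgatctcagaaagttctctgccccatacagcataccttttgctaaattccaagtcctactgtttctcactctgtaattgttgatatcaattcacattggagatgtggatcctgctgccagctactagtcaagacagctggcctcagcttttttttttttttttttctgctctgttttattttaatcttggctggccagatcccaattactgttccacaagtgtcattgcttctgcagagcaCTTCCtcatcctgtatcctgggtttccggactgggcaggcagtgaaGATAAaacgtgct
Ppbp: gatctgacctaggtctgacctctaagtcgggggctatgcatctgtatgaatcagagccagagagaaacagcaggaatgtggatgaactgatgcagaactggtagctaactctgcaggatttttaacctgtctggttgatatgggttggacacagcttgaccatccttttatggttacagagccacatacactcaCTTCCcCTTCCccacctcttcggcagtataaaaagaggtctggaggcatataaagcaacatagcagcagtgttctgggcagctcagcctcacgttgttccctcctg
Gp9: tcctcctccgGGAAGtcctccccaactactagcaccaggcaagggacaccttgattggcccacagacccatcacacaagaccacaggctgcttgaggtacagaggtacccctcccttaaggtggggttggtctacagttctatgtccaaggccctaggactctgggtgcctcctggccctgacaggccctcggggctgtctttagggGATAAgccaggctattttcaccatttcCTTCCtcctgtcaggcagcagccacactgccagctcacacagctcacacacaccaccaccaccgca

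GATAA occurred in 3 of the 6 windows of the rule genes (Pf4, Gp9 and, 4 times, Clec1b) and in 25.4% of all 32851 windows of 300 bases. GGAAG occurred in 5 of the 6 (not in Clec1b) and in 71.4% of all. Pf4 and Gp9 held matches of both kinds, as did 17.2% of all windows. The matches describe letters and do not show a binding site.

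Most barcodes that passed the rule held all 6 markers. Of the kept barcodes with no UMI of the 3 excluded genes, 468 had 1 of the 6 markers, 24 had 2, 4 had 3, 15 had 4, 19 had 5 and 63 had all 6. The 24 just outside the rule had a median of 15241.5 UMIs, of which a median of 2.5 were from the 6 genes, and 21 of them carried 3 or more markers of another cell type. The 4 just inside it had 1561 to 12649 UMIs with 3 to 7 from the 6 genes, and 3 of them carried 3 or more markers of another cell type. These values chose the barcodes and are a description.

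**Figure D1:**
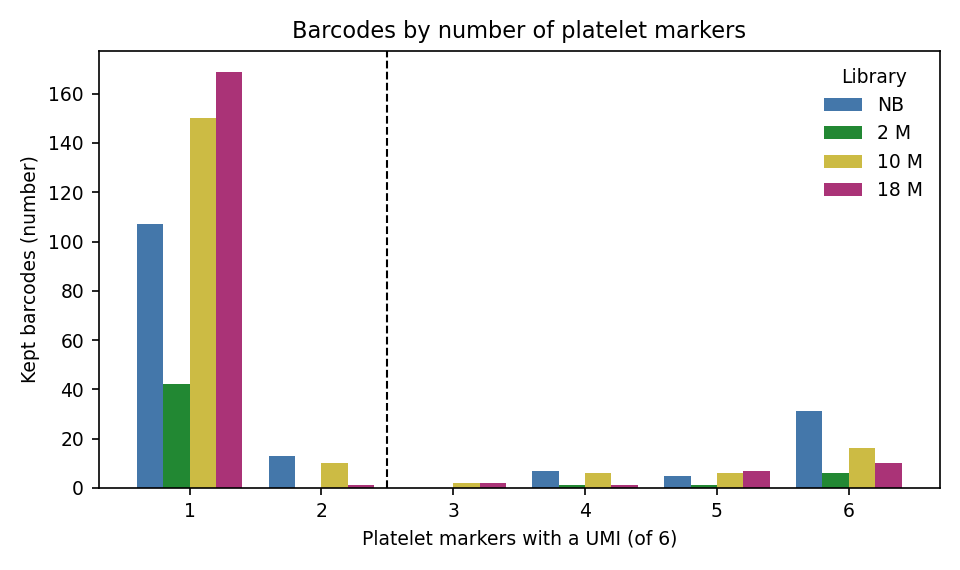
Number of kept barcodes (y axis) without Cd3e, Cd79a or Csf3r UMIs that had 1 to 6 of the platelet markers (x axis), as bars for the 4 libraries. The dashed line is the rule's limit, barcodes with none of the markers are not drawn, and the counts fall to 4 at 3 markers and rise to 63 at 6.

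The NB library had 43 platelet-marker barcodes among 6377 kept (0.674%, exact binomial interval 0.488 to 0.907). The share was 0.144% (0.0624 to 0.284) for 2 M with 8 of 5537, 0.382% (0.258 to 0.544) for 10 M with 30 of 7862 and 0.239% (0.146 to 0.368) for 18 M with 20 of 8377. NB was highest and its interval did not meet those of 2 M and 18 M, while the neighbours 2 M and 18 M, and 18 M and 10 M, had intervals that overlapped. Over all libraries the share was 0.359% (0.292 to 0.436) and without 18 M it was 0.410% (0.325 to 0.509). Shares of barcodes depend on what the dissociation and the calling of cells let through, and their part in these shares was not tested.

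The 6 genes differed in how closely they kept to these barcodes. Of all UMIs of Ppbp in kept barcodes 94.7% lay in the 101, of Treml1 94.7%, of Gp9 94.4%, of Pf4 73.0%, of Itga2b 68.7% and of Clec1b 65.8%. Of 290 other barcodes with Pf4, 118 carried 3 or more of 10 markers of monocytes and interstitial macrophages. For Clec1b it was 179 of 248, for Itga2b 13 of 210, for Ppbp 5 of 65, for Treml1 2 of 12 and for Gp9 0 of 18. B cells were used to give the level of free RNA. Among 6339 barcodes with Cd79a, Cd79b and Ms4a1 and a median depth of 3746 UMIs, Pf4 had a UMI in 0.316% and Ppbp in 0.205%, against 100 of the 101 platelet-marker barcodes for each, whose median depth was 1084. Both genes chose the 101 barcodes and Cd79a was barred from them, so the selection fixes this contrast and it is a description. At least 3 of the 6 markers were found in 3 of these B cells.

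The platelet-marker barcodes held little RNA. Their medians were 1007, 930.5, 1250 and 1657.5 UMIs from the youngest library to the oldest, and single barcodes ranged from 504 to 24717. Values of the 4 libraries are given in this order from here on. In the barcodes with fewer than 3 markers of each other cell type, described below, the medians were 964.5, 777, 945 and 1068 UMIs. After thinning of each barcode to 500 UMIs, the median number of genes was 250, 231, 249 and 275.5 (before thinning 405, 303, 407.5 and 627.5). B cells thinned in the same way had medians of 339, 346, 336 and 368 genes (before thinning 1605, 1606.5, 1505 and 1526), and barcodes with 50% or more haemoglobin UMIs outside the 101 had 135, 154, 138 and 60. The platelet-marker barcodes thus lay between red cell and lymphocyte barcodes in how many genes their RNA was spread over.

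Some barcodes carried markers of a second cell type. Markers of 14 other cell types (112 genes) were counted in each barcode, and 16 of the 101 had 3 or more markers of at least 1 type (15.8%, exact interval 9.33 to 24.4). They numbered 3 of 43, 1 of 8, 5 of 30 and 7 of 20 by library, and without 18 M the share was 11.1% (5.21 to 20.05). The count of 18 M was the highest, and its interval of 15.4% to 59.2% overlapped those of the other libraries. Fibroblast markers were met in 6 barcodes, alveolar type II cell markers in 4, T cell markers in 3, and NK cell, endothelial and pericyte or smooth muscle markers in 2 each, with 3 types together in 1 barcode of 18 M and fibroblast and pericyte markers together in 1 of NB. No barcode reached 3 markers of B cells, neutrophils, monocytes or interstitial macrophages, alveolar macrophages, dendritic cells, basophils or mast cells, airway epithelium or erythroid cells. T cells, B cells and neutrophils are limited by the rule itself, which bars a marker of each. Below, the 16 are called barcodes with markers of another cell, or with another cell, and the other 85 barcodes without. These names state marker counts and do not show that a second cell was present. The smallest of the 16, in 18 M, had 560 UMIs and 4 type II cell markers. The 85 had fewer than 3 markers of each type, not none, and 73 of them had a UMI of Lyz2.

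The 16 barcodes with 3 or more markers of another type held 53.4% of all UMIs of the 101, and without 18 M the share was 44.5%. Their median was 6834.5 UMIs against 969 in the other 85, and the UMIs of the 6 rule genes went the other way, with a median of 15.5 against 59. Malat1, an RNA that stays in the nucleus and was used neither by the rule nor by the marker lists, made up a median of 2.33% of their UMIs (0.179% to 6.04%). In the 85 its median was 0, 44 of them had no UMI of it and 82 had under 0.5%. B cells had medians of 3.04% to 4.14%, and 2 of the 6339 had none. Ribosomal protein genes gave a median of 14.2% in the 16, 1.88% in the 85 and 20.9% to 28.5% in the B cells. Marker detection rises with depth, and at 500 UMIs each, 7.92% of the 101 barcodes still had 3 markers of another type.

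**Figure D2:**
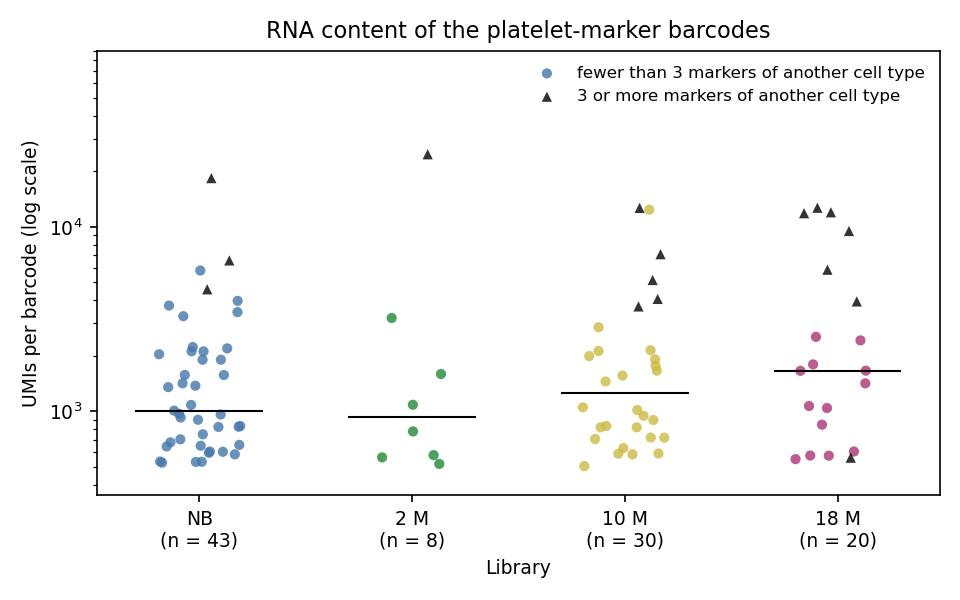
UMIs per barcode on a log scale for the 43, 8, 30 and 20 platelet-marker barcodes of the 4 libraries, with a line at each median. Triangles are the 16 barcodes with 3 or more markers of another cell type, most of which lie at the top of their library.

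Single barcodes carried much of a library's sum. In 2 M, 1 barcode held 24717 of 33029 UMIs (74.8%) together with all 8 type II cell markers, 343 UMIs of Sftpc (surfactant protein C), 4.42% Malat1, 87 UMIs of Pf4 and 60 of Ppbp. In NB, 1 barcode of 6570 UMIs and 2387 genes had 4.57% Malat1 beside 60 UMIs of Pf4, 29 of Ppbp and 47 of Thbs1. It also had 3 UMIs each of Fli1 and Runx1 and 1 of Gata1, transcription factors of megakaryocytes, and 19 UMIs of Acta2, 6 of Des and 2 of Myh11, genes of smooth muscle. Its RNA from a nucleus can therefore not be given to a megakaryocyte or to a muscle cell from these counts. In the 10 M library 1 barcode of 12378 UMIs was 96.1% haemoglobin with only 208 genes. Barcodes with 50% or more haemoglobin numbered 1 each in NB, 2 M and 10 M and 0 in 18 M.

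Among the 85, 2 barcodes had over 1% Malat1. A 10 M barcode of 1561 UMIs had 4.10% and a platelet gene share of 3.40%, with 3 of the 6 markers. In 18 M, a barcode of 574 UMIs had 10.5% and a platelet gene share of 10.3%, with 11 UMIs of Pf4. They lay apart from the other barcodes without markers of another cell, and values that rest on them are named below.

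**Figure D3:**
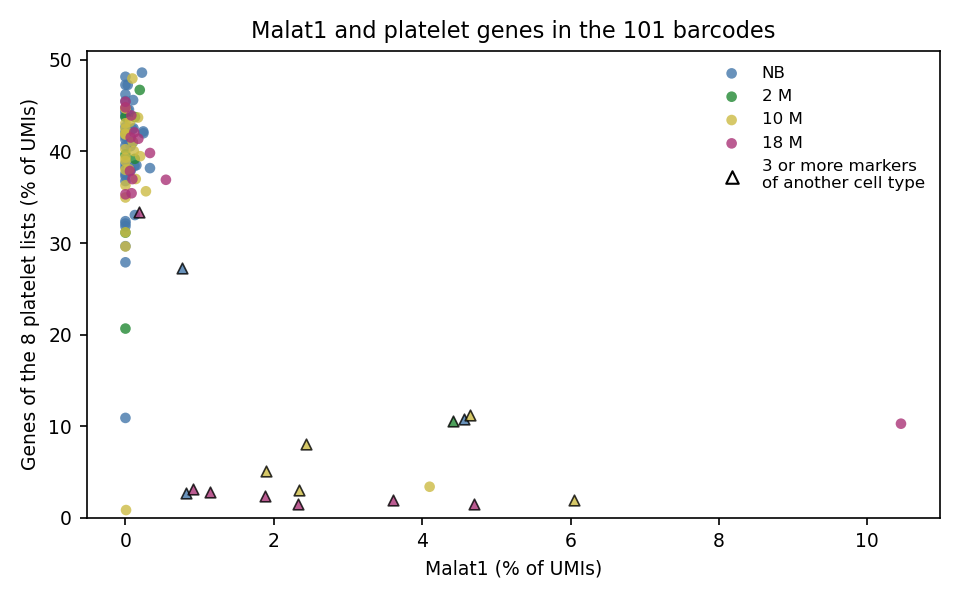
Percent of UMIs from 134 genes of the 8 platelet lists (y axis) against percent from Malat1 (x axis) for each of the 101 barcodes, coloured by library. Triangles with black edges are the 16 barcodes with markers of another cell type, 12 of which are above 1% Malat1, against 2 of the 85 others.

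To describe the platelet RNA, the 85 barcodes without markers of another cell were summed (40, 7, 25 and 13 by library), and levels are UMIs per 1000000 UMIs that were not from haemoglobin (CPM). Leaving out these barcodes together with haemoglobin was chosen after seeing the data. These sums hold 109305 such UMIs, so 1 UMI is 9.15 CPM. The assay counts 3′ ends, 1 per molecule, so the levels are not divided by gene length. Whether genes differ in how well their RNA is captured was not tested, and the counts do not give protein levels. Genes of the 8 platelet lists made up 43720 of these UMIs, and the median barcode had 40.6% of all its UMIs in them. Of the 134 genes, 114 had a UMI and 57 were found in at least 50% of the barcodes.

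Cytoskeleton genes were the most abundant group, at 18.6% of the non-haemoglobin UMIs, and all 22 were detected. Tmsb4x (thymosin beta 4, which binds actin monomers) reached 95723 CPM (93898 to 97575) and Actb, beta actin, 47043 (45766 to 48346), and both were found in all 85 barcodes. Below them were Pfn1 (profilin) at 5261 CPM, Tpm4 (a tropomyosin) at 4931, Zyx (zyxin) at 4346, Myl9 (myosin light chain) at 4044 and Myh9 (myosin heavy chain) at 3330. The genes that tie integrins to actin came next, with Fermt3 (kindlin-3) at 3101 CPM, Tln1 (talin) at 2928, Parvb at 2864 and Flna (filamin A) at 2342. Tubb1, the beta tubulin of the ring of microtubules that gives platelets their shape, was at 311 CPM and in 24 barcodes, lower than the tubulin Tuba4a at 1574.

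The cargo of alpha granules made up 7.41% of these UMIs, and 18 of 21 genes had a UMI. Pf4 stood at 25873 CPM (24928 to 26844) in all 85 barcodes and Ppbp at 22597 (21715 to 23506) in 84, which the rule favours. Thbs1 (thrombospondin 1, an adhesive glycoprotein) followed at 7182 CPM in 75 barcodes, Srgn (serglycin, the proteoglycan that packs granules) at 6889 in 84 and Clu (clusterin) at 3156 in 70. Coagulation proteins were lower, with Vwf (von Willebrand factor) at 1821 CPM, F5 (factor V) at 1592 and F13a1 (the factor XIII A chain) at 503. Growth factors ranged from Tgfb1 at 1427 CPM through Angpt1 at 586 to Pdgfa at 274. Pdgfb, Vegfc and Egf had no UMI, which allows up to 27.4 CPM. Cxcl5 (ENSMUSG00000029371, chr5:90759360-90761624, plus strand), a chemokine gene near Ppbp, had 9 UMIs.

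Among adhesion receptors 20 of 23 genes were detected, and 13 were found in at least 50% of barcodes. Cd9, a tetraspanin, was the highest at 13686 CPM. The subunits of the von Willebrand receptor were far apart, with Gp1bb at 4410 CPM (4025 to 4822), Gp9 at 3449 (3110 to 3815), Gp5 at 1226 (1027 to 1452) and Gp1ba, the chain that binds the ligand, at 339 (238 to 467). The 2 chains of the fibrinogen receptor were Itga2b at 4867 CPM and Itgb3 at 2269. The collagen receptor Gp6 had 833 CPM and its signalling partner Fcer1g 1290, and Clec1b had 5343. The rule favours Gp9, Itga2b and Clec1b, which it used, so their levels beside those of the other receptors are a description. Selp, P-selectin of the granule membrane, had only 8 UMIs in 8 barcodes. Cd36, Pear1 and Jam3 had none in the 85, while Cd36 had 23 UMIs in the full 101.

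Receptors of soluble agonists had few UMIs. F2rl2 (protease-activated receptor 3, a thrombin receptor of mouse platelets) had 640 CPM (499 to 809), the ADP receptor P2ry12 375, the ATP channel P2rx1 357 and P2ry1 165. F2rl3 (protease-activated receptor 4) had 1 UMI, and Tbxa2r, Ptger3 and Adra2a had none. Genes of granule formation and release held 0.333% of the non-haemoglobin UMIs against 0.219% for these receptors, and 8 of 22 had no UMI. Stx11 (a syntaxin of granule release) at 1253 CPM, Rab27b at 759 and Snap23 at 704 were the only ones with 20 or more UMIs. Nbeal2, the gene of grey platelet syndrome, had 4 UMIs.

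Signalling genes were led by Gng11, a G protein gamma chain, at 12442 CPM, and by Plek (pleckstrin, the main substrate of protein kinase C in platelets) at 5517. Rap1b, the small GTPase that turns on integrins, had 4373 CPM and its exchange factor Rasgrp2 had 1464. The regulators of G protein signalling Rgs10 and Rgs18 had 4154 and 1592. For eicosanoids, Alox12 (12-lipoxygenase) at 3614 CPM (3266 to 3988) was above Ptgs1 (cyclooxygenase 1) at 403 (292 to 540) and Tbxas1 (thromboxane synthase) at 302 (208 to 424). Ctla2a, a cysteine protease inhibitor, and Nrgn (neurogranin, a calmodulin binding protein) belonged to the most abundant genes at 25690 and 18709 CPM. In B cells, a UMI of Nrgn was found in 1.42% to 2.68% of barcodes of the 4 libraries, against 84 of the 85 barcodes.

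**Figure D4:**
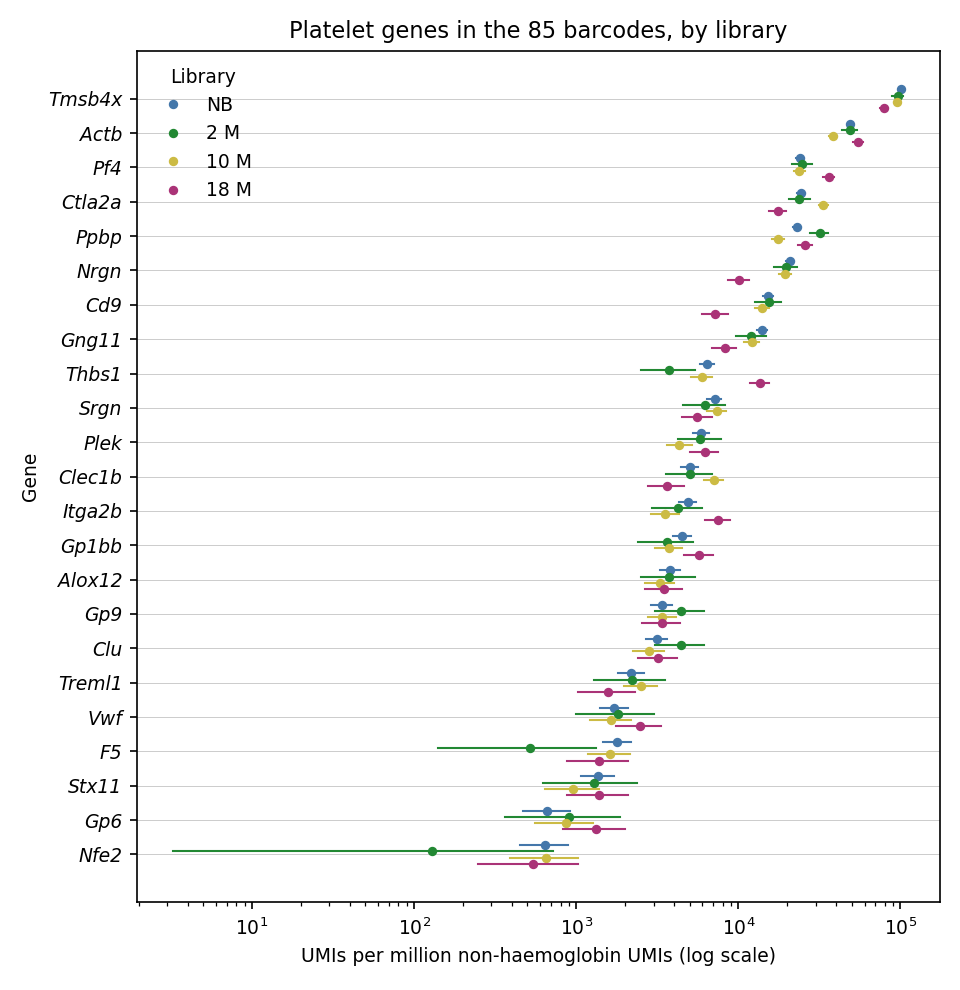
Levels of 23 platelet genes in the summed barcodes without markers of another cell, in CPM without haemoglobin on a log scale, for the 4 libraries. Points are the sums of 40, 7, 25 and 13 barcodes, lines are exact Poisson 95% intervals, and the lines are widest in 2 M, where 1 UMI is 129 CPM.

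Transcription factors of megakaryocytes left few molecules. Of 18 genes 14 had a UMI, and Nfe2 (the factor that drives platelet release) at 595 CPM (459 to 758) and Fli1 at 393 (285 to 530) alone had 20 or more UMIs. Gata2 had 18 UMIs, Tal1 13, Gata1 9 and Runx1 7, and the 4 with none included Meis1, Lmo2 and Lyl1. Of 7 stem and progenitor cell genes Cdk6 and Sox4 had 2 UMIs each and Kit, Myb, Cd34, Hlf and Mecom none. Of 21 cell cycle genes Pcna had 2 UMIs and Top2a 1, and the other 19, Mki67 among them, had none. A count of 0 in the summed barcodes allows up to 27.4 CPM for each. Whether any of the 101 barcodes is a megakaryocyte was not settled by these lists. Most barcodes with over 1% Malat1 carried markers of another cell. The 2 that did not had platelet gene shares of 3.40% and 10.3%, against a median of 40.6% in the 85. The second of them had 22 UMIs of the 6 rule genes.

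Class I molecules for antigen presentation were found, with B2m (beta 2 microglobulin) at 3303 CPM (2971 to 3662) in 67 barcodes, H2-D1 at 1016 (835 to 1223) and H2-K1 at 448 (332 to 593). Class II genes were close to absent, with 7 UMIs of Cd74 and 1 to 3 each of H2-Aa, H2-Eb1 and H2-Ab1. Of 15 interferon-stimulated genes Ifitm3 (49 UMIs) and Ifitm2 (26) were above 20 UMIs, and Isg15, Ifit3, Oas1a, Mx1 and Ifitm1 had none.

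Lyz2, a lysozyme of myeloid cells, was the marker of another cell type seen in the most barcodes, 73 of the 85, with 269 UMIs. Sftpc had a UMI in 23 of the 85 and Scgb1a1, a secretoglobin of airway club cells, in 18. By library Sftpc was found in 10 of 40, 2 of 7, 5 of 25 and 6 of 13, and in the deeper B cells of the same libraries in 30.04%, 27.7%, 29.7% and 74.9%. Scgb1a1 was found in 12 of 40, 0 of 7, 1 of 25 and 5 of 13, against 22.2%, 3.81%, 4.96% and 57.1% of the B cells. Sftpc was thus near or below the B cell share in each library, whereas Scgb1a1 was above it in NB. Hbb-bs, a beta globin, was found in 28 of 40, 3 of 7, 17 of 25 and 12 of 13 and in 81.3%, 55.6%, 69.6% and 97.6% of the B cells. Hba-a1, an alpha globin, was found in 30 of 40, 4 of 7, 23 of 25 and 11 of 13 and in 49.7%, 31.6%, 42.1% and 80.5% of the B cells. The 2 globins thus lay on opposite sides of the B cell share. The 85 had a median of 969 UMIs and the B cells 3746, so these shares do not compare levels per UMI. Lyz2 was at 2741, 3751, 2404 and 1022 CPM in the 85 and at 52.9, 121, 311 and 359 CPM in the B cells. The part of free RNA in these values was not tested.

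Against all other kept barcodes, the 20 genes with the highest ratios among those with 50 or more UMIs in the 101 and found in at least 20% of them included the rule genes Ppbp and Treml1, at 10260 and 10199 times. Of 561 genes so measured 50.4% were at least 2-fold higher, and the rule used this contrast, so the ratios are a description. Also among them were Gp9, Gp6, Alox12, G6b (an inhibitory receptor), Gp1bb and Gp5, and Nrgn had 1152 times the level. On the same scale the list held 4 genes outside the platelet lists. These were Gchfr (regulator of GTP cyclohydrolase, 563 times), Sytl4 (a partner of Rab27, 390 times), Mfsd2b (exporter of sphingosine-1-phosphate, 384 times) and Pls1 (plastin 1, 321 times). Without 18 M the 4 ratios were 803, 654, 456 and 460.

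Between ages, the sums of all 101 barcodes were compared first. The groups share 2 M as the reference, and a gene was past 2-fold if its ratio of CPM (here of all UMIs) was at least 2 or at most 0.5 and its interval excluded 1. In 18 M against 2 M, 102 of 768 genes were higher (13.3%) and 114 lower (14.8%). In NB against 2 M it was 148 higher (17.3%) and 118 lower (13.8%) of 854, and in 10 M against 2 M 84 higher (11.8%) and 85 lower (12%) of 710. For the platelet lists the direction differed between these comparisons. In 18 M against 2 M, 1 of 66 was higher and 9 lower, with a median log2 ratio of -0.37 against -0.046 over all genes. In NB against 2 M, 22 of 79 were higher and 0 lower, with a median of 0.80 against 0.23. In 10 M against 2 M, 3 of 73 were higher and 0 lower.

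Several of the genes furthest apart had their UMIs in barcodes with markers of another cell. Xist had 58 UMIs in 18 M and 0 in 2 M, at least 8.74-fold higher against a floor of 3 UMIs, all in barcodes with markers of another cell. Pim1, a kinase induced by cytokines, had 50 UMIs in 5 barcodes of 18 M against 1 in 2 M, and 0 of the 50 came from the 13 barcodes without another cell. In 10 M against 2 M, Ccl5, a chemokine of NK and T cells, had 136 UMIs against 0, of which 8 lay outside the barcodes with another cell. Hbb-bs was 9.83 times as high there, and 99.1% of its UMIs in 10 M came from the barcode that was mostly haemoglobin. Without the 16 barcodes and with haemoglobin taken out of the totals, 174 genes could be compared between 18 M and 2 M, of which 13 were higher (7.47%) and 15 lower (8.62%). The platelet lists, rule genes included, then had 1 gene higher and 2 lower of 55, and their median was 0.081. In NB against 2 M 1 of 75 platelet genes was then higher and 0 lower, beside 2.55% and 1.39% of all 431 genes, and the median was -0.024. In 10 M against 2 M 2 of 63 were higher and 1 lower, beside 2.27% and 1.89% of 264, with a median of -0.14. The 7 barcodes of 2 M held only 7732 of the UMIs compared, so this reference limits all 3.

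In the 85 barcodes, B2m was past 2-fold lower in the library labelled 18 M than in each other library. H2-D1 was so against NB and 10 M, and H2-K1 against 10 M alone. B2m had 203, 30, 114 and 14 UMIs by library, which is 3637 CPM (3154 to 4173), 3880 (2618 to 5539), 3915 (3229 to 4703) and 842 (460 to 1412). It was found in 34 of 40, 6 of 7, 20 of 25 and 7 of 13 barcodes. The first 3 libraries overlapped and 18 M lay below all of them, at 0.217 times 2 M (0.106 to 0.422), 0.231 times NB and 0.215 times 10 M. Without the barcode with the most B2m in each library the levels were 3076, 2603, 3594 and 667 CPM. H2-D1 had 1164, 647, 1271 and 240.5 CPM, on 65, 5, 37 and 4 UMIs. Its ratio of 18 M to NB was 0.207 (0.0546 to 0.555), whereas its interval in 2 M reached from 209.97 to 1509 CPM and met that of 18 M, and without the barcode with 4 of its 5 UMIs 2 M was at 163 CPM. H2-K1 had 2 UMIs in 18 M and was 0.258 times NB, with an interval that included 1 (0.0297 to 1.03). It was 0.184 times 10 M (0.0208 to 0.764), with 47.4% of the 19 UMIs of 10 M from 1 barcode. That was the 1561-UMI barcode with 4.10% Malat1 named above, and without it H2-K1 was at 363 CPM in 10 M. The same barcode held 24.3% of the 37 UMIs of H2-D1 in 10 M, and without it H2-D1 was at 1016 CPM there. In the B cells of the same libraries B2m was at 1918, 1373, 1576 and 1194 CPM and H2-D1 at 2054, 1726, 2147 and 884. H2-K1 was at 2042, 1518, 1812 and 1020 CPM there. B cells of 18 M were thus also lowest for each gene, by a smaller factor than the sums of the 85 barcodes. The part of the library in the platelet values was not tested.

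Thbs1 was higher in 18 M. It had 358, 29, 173 and 225 UMIs, or 6413 CPM (5766 to 7113), 3751 (2512 to 5387), 5941 (5088 to 6895) and 13528 (11818 to 15416). The ratio of 18 M to 2 M was 3.61 (2.44 to 5.51), that to NB 2.11 (1.78 to 2.499) and that to 10 M 2.28 (1.86 to 2.79). In 2 M 1 barcode held 62.1% of the UMIs, and without the barcode with the most Thbs1 in each library the levels were 6225, 2426, 5519 and 11958 CPM. Per 10000 non-haemoglobin UMIs of a barcode, Thbs1 ranged from 0 to 243 in 18 M with a median of 107, and from 0 to 234 in NB with a median of 49.9, so the barcodes of the libraries overlapped. In B cells it was at 73.4 CPM in 18 M and 11.4 to 20.6 in the other libraries, and the part of free RNA in the platelet difference was not tested.

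Of the cytoskeleton list, 5 of 20 genes were past 2-fold higher in 18 M than in 10 M, 1 of 19 than in NB and 0 of 19 than in 2 M. Against 10 M, 10 of 69 platelet genes were past 2-fold higher and 2 lower, beside 8.75% higher and 9.04% lower of all 343 genes, and the cytoskeleton genes among the higher were the tubulin Tuba4a and the actin-linked Flna, Parvb, Vcl and Actn1. Tln1, Fermt3, Ilk and Zyx were not past 2-fold in any comparison with 18 M. Flna had 2239, 2199, 1545 and 4149 CPM, and was 2.68 times as high in 18 M as in 10 M (1.82 to 4.00). Vcl, vinculin, had 842, 905, 721 and 2044 CPM and was 2.83 times 10 M (1.60 to 5.14) and 2.43 times NB (1.51 to 3.86). Against NB, Vcl alone of 19 cytoskeleton genes was past 2-fold, and 4 of 79 platelet genes were higher and 4 lower, beside 5.27% of 474 genes in each direction. Between NB and 10 M, 0 of 77 platelet genes were higher in NB and 2 lower (P2ry12 and Tubb1), beside 2.76% and 4.23% of 544. Itga2b had 4873, 4268, 3537 and 7456 CPM, 2.11 times 10 M (1.61 to 2.76). It is a rule gene and 1 of the 10 higher genes, and its UMIs helped to choose the barcodes. Its ratio is therefore a description. The comparisons with 18 M share the 13 barcodes of 18 M and are not independent of each other.

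Nrgn was past 2-fold lower in 18 M against NB alone, and Cd9 against NB and 2 M. Nrgn had 20817, 19659, 19368 and 10041 CPM, 0.482 times NB (0.408 to 0.568), 0.511 times 2 M (0.408 to 0.641) and 0.518 times 10 M (0.434 to 0.617). Cd9 had 15192, 15391, 14045 and 7215 CPM, 0.475 times NB (0.389 to 0.576), 0.469 times 2 M (0.361 to 0.609) and 0.514 times 10 M (0.416 to 0.631). Ctla2a had 24418, 23797, 33344 and 17436 CPM and Gng11 13938, 12028, 12088 and 8237, with 18 M lowest in both but past 2-fold against none of the others. Pf4 was highest in 18 M, with 24077, 24702, 23763 and 36135 CPM, and under 2-fold apart from each of the others. Ppbp had 22985, 31686, 17616 and 25794 CPM, in another order than Pf4. Both Pf4 and Ppbp are rule genes, so their levels by library are a description.

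**Figure D5:**
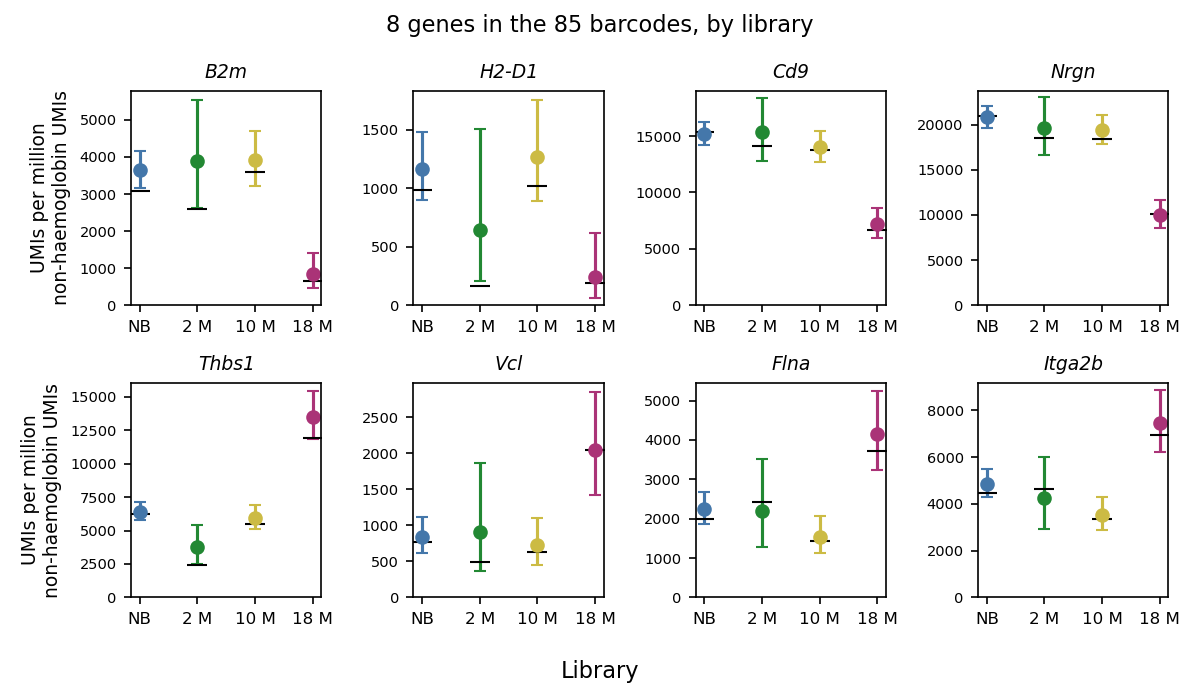
Levels of 8 genes, chosen after their values were seen, in the summed barcodes without markers of another cell (40, 7, 25 and 13 barcodes). Values are CPM without haemoglobin with exact Poisson 95% intervals, and Itga2b is a rule gene. Black dashes are the level without the barcode with the most UMIs of that gene, and the point of 18 M is the lowest in the upper row and the highest in the lower row, with intervals that meet those of 2 M for H2-D1, Vcl and Flna.

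Other genes named by the fixed rule of size were mixed in function. Of those higher in 18 M than in 2 M, Dstn (destrin, which severs actin) had 38 UMIs in 11 barcodes against 1, Cox4i1 (a subunit of cytochrome oxidase) 20 against 1, Atpif1 (the inhibitor of ATP synthase) 64 against 6 and Ppif (mitochondrial cyclophilin) 21 against 2. Dstn was 17.7 times as high (2.98 as the lower bound) and Atpif1 4.96 times (2.16 as the lower bound). Malat1 was 8.60 times as high, but 81.1% of its 74 UMIs came from the 574-UMI barcode named above. Of those lower, Ubb (ubiquitin) had 0.282 times the level of 2 M (0.188 to 0.417), Ftl1 (ferritin light chain) 0.302, Lyz2 0.273, Alox5ap (the activator of 5-lipoxygenase) 0.275 and Hist1h2bc (a histone) 0.362. In B cells Ubb was also lowest in 18 M, at 791 CPM against 1784 to 2186, as was Hist1h2bc at 14.5 against 47.04 to 74.7. Dstn was also highest there, at 136 CPM against 39.2 to 51.2, whereas Lyz2 went the other way, at 359 in 18 M and 121 in 2 M. The part of the library in these differences was not tested. F5 was 3.46 times as high in NB as in 2 M (1.31 as the lower bound) and 3.12 times in 10 M, against 4 UMIs in 2 M.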

How the data were processed

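UMI counts per gene and barcode were deposited by the authors without normalization. The submitters' notes name Cell Ranger 3.0.2, mm10 and Seurat 2.0, whereas the matrix headers give software version 3.1.0, so the versions differ. Barcodes had been called as cells before deposit. The barcodes and gene lists were chosen with earlier results of these data known. Of the listed genes, 1 list gene and 2 markers of other cells matched no symbol. No doublet caller was run and doublets were kept. UMIs were summed per library (Python 3.11.15, scipy 1.17.1; ratios with exact conditional binomial intervals, levels with exact Poisson intervals, shares with Clopper-Pearson intervals, all 95%, two-sided). Genes with 20 or more UMIs over both libraries were compared, and 0.5 UMIs were added for log2 ratios. The 8 highest and 8 lowest ratios found in 5 or more barcodes were eligible to be named, beside rule genes and lists. The ratio was tested on simulated Poisson counts without variation between barcodes, so that test does not cover genes whose UMIs lie mostly in 1 barcode. The sums without haemoglobin and without barcodes with markers of another cell were an alternative chosen after seeing the data. Other alternatives covered marker number, limits, depth, totals, gene minimum and added counts. Values of some genes are not reported here.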

Additional observations from a re-analysis of the deposited data

Results flagged for a closer look

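Data outside the comparisons held platelet markers. Of kept barcodes with 3 or more of the 6 markers, 13 were left out for UMIs of Cd3e (5 barcodes), Cd79a (7) or Csf3r (1), 8 of them from NB, 4 from 10 M and 1 from 18 M. Their median was 3905 UMIs. A barcode of 850 UMIs from NB had all 6 markers, 49 UMIs of the 6 genes, no Malat1 and no 3 markers of another cell. Outside the limits on barcodes lay 3 more, of 1331, 43125 and 94719 UMIs.

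Xist, which is 1 of the 102 genes higher in 18 M than in 2 M and is on no platelet list, had 58 UMIs in the platelet-marker barcodes of the library labelled 18 M and 0 in those of the other libraries.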

How the results depend on the processing

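With 1 library per age no spread between animals is known, and 7 barcodes without another cell in 2 M limit each comparison with it. No paired analysis was possible because each age has 1 library. The share of platelet-marker barcodes moved with a minimum of 1000 UMIs, to 0.352% in NB and 0.219% in 10 M, and was 0.073% in 2 M and 0.178% in 18 M, within their wider intervals. The share with markers of another cell was 29.6% with 2 of the 6 markers, 26.3% from 1000 UMIs, 25.7% with 2 other-cell markers and 7.92% at 500 UMIs each. The counts of genes higher and lower in 18 M than in 2 M (102 and 114) were 456 and 240 with no limits on barcodes. They were 17 and 14 without barcodes with markers of another cell, and 13 and 15 when haemoglobin was also taken out. From 10 UMIs they were 186 and 186, and from 50 UMIs 44 and 44. The lower count was 71 with haemoglobin, mitochondrial, ribosomal protein and 3 free RNA genes out of the totals, and the higher count 331 for the mean over barcodes, where no interval was asked for. The platelet median of -0.37 turned to 0.18 without barcodes with markers of another cell and to 0.081 when haemoglobin was also taken out. It was -0.060 with 4 markers, -1.19 with no limits, -0.15 with the reduced totals, -1.43 without the barcode with the most UMIs in each library and -0.051 for the mean over barcodes. The 2 limits of 10 and 50 UMIs change how many genes are compared, and the cause of the other shifts was not tested.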
